A study of Drosophila melanogaster with 4 samples.

Results

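Of the 7 genes examined here, prd, slp1, slp2, odd and eve pattern the segments of the fly embryo. The drm and sob genes are relatives of odd. All 7 were chosen by name from the 11749 protein-coding genes annotated on the autosomes. Each was followed with 100 kb on both sides through lists of topologically associating domains (TADs) and chromatin loops. They form 4 loci: prd, the pair slp1 and slp2, and the cluster of drm, sob and odd, all on chromosome arm 2L, and eve on 2R. The lists come from in situ Hi-C, which cuts crosslinked DNA with DpnII at GATC, ligates the ends and counts, as read pairs, which fragments lay together. The cells were BG3, a male line established from larval central nervous system, and Kc167, a female line of embryonic origin. Neither was treated, and each had 2 biological replicates that were summed into 1 contact map before TADs and loops were called. By the study's methods the BG3 map rests on fewer read pairs. The lists give no spread between replicates, so the values below are descriptions of 2 maps, with no test between the lines, and intervals cover counting error only. No expression values were used, and the lines were not checked against marker genes.

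Segments arise in a cascade in which maternal and gap genes set broad domains, pair-rule genes turn these into stripes of alternating segments, and segment polarity genes hold the pattern afterwards. Prd carries a paired domain and a homeodomain. Eve is a homeodomain repressor. Slp1 and Slp2 are forkhead proteins encoded by neighbouring genes, and Odd, Drm and Sob are related zinc finger proteins, of which Odd is the pair-rule protein. Several of these genes are used again in the nervous system: eve in identified motor neurons, and slp1 and slp2 in the temporal series of optic lobe neuroblasts. Enhancers of such genes can lie far from the promoter, and many of the loci are bound by Polycomb proteins. The eve locus is flanked by the insulators nhomie and homie, which pair with each other.

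A TAD border is the last base of one TAD and is given by its dm6 position. No member had a border within 2 kb of its 5' end, in BG3 (0 of 7, against 17.3% of all protein-coding genes) or in Kc167 (0 of 7, against 19.8%). Among the members, eve lay nearest to a border, at 8007 bp in BG3 and 7572 bp in Kc167. The drm gene lay farthest, at 79732 and 78893 bp, and 97.9% and 97.4% of all genes were nearer to a border than drm. In BG3 the sob, slp1 and prd genes followed at 38210, 36783 and 48131 bp, farther than 87.4%, 86.5% and 92.0% of genes, slp2 stood at 25618 bp and odd at 12223 bp. In Kc167 sob stood at 37371 bp, slp2 at 23241 bp, slp1 at 12076 bp, odd at 11384 bp and prd at 7668 bp. The all-gene median was 11.1 kb in BG3, with quartiles of 3.66 and 24.0 kb, and 9.10 kb in Kc167, with quartiles of 3.03 and 19.8 kb. The distance was 40463 bp larger in BG3 than in Kc167 for prd and 24707 bp larger for slp1, while for the other 5 genes the maps differed by 435 to 2377 bp. The 2377 bp was that of slp2, for which the distances were alike but the borders were not. Its nearest border was 3862458, downstream, in BG3 and 3813599, upstream, in Kc167.

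**Figure D1:**
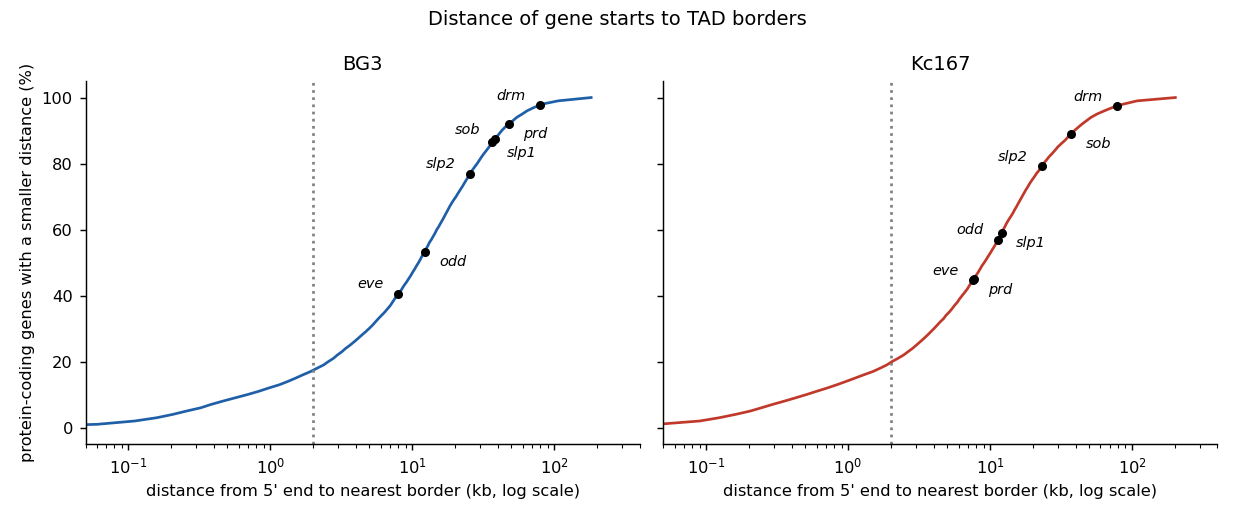
Cumulative share of all 11749 autosomal protein-coding genes (%) against the distance from the 5' end to the nearest TAD border (kb, log scale), in BG3 on the left and Kc167 on the right. Black points mark the 7 members, and the dotted line stands at 2 kb. No member lies left of the line, and prd moves from 48131 bp in BG3 to 7668 bp in Kc167.

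The surroundings of prd were divided differently in the maps. In BG3, prd lay in a TAD of 129.8 kb with 28 protein-coding genes, chr2L:12004174-12133958, wider than 93.6% of BG3 TADs. In Kc167 its TAD was 37.69 kb, chr2L:12055810-12093495, with 8 protein-coding genes. The outer borders 12004173 and 12133958 were called at the same base in both maps, and Kc167 placed 3 further borders between them, at 12055809, 12093495 and 12109212. They were 51636, 40463 and 24746 bp from the nearest BG3 border. They lay 233 bp from the 5' end of the gene JhI-21, an amino acid transporter, 1673 bp from that of Pex19, a peroxisome biogenesis gene, and 96 bp from that of Rab6, a small GTPase of the Golgi. Of these 3 borders, that at 12093495 was also in the list called with the authors' stringent setting. The outer border at 12004173 had a TAD separation score of -0.309 in BG3, lower than all but 3.36% of BG3 borders, and was nevertheless absent from the stringent BG3 list. The score runs lower where contacts across a position are sparser and is comparable within a map alone.

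A loop joined the promoter region of prd to a site 28 kb downstream of it at the same pair of 2 kb bins in both maps, chr2L:12056001-12058000 and chr2L:12084001-12086000. In BG3 the pixel held 24 contacts where the surrounding ring of pixels, the donut, predicted 4.71, a ratio of 5.10 (95% Poisson interval 3.27 to 7.58). In Kc167 it held 59 contacts where 11.5 were expected, a ratio of 5.11 (3.89 to 6.59). The donut ratios were close although the contacts differed in number. The horizontal neighbourhood gave 2.94 in BG3 and 2.34 in Kc167, and the vertical one 4.80 and 6.69, so the point values were close for the donut alone. No intervals were computed for the other neighbourhoods, and a difference between the maps was not tested. The donut ratios exceeded those of 85.0% of the 771 autosomal BG3 loops and 91.4% of the 1126 autosomal Kc167 loops. The donut q-values were 1.17e-06 and 1.15e-17, and the largest of the 4 q-values, for the horizontal neighbourhood, were 0.0151 and 0.000928. In both maps the expected count of the neighbourhood nearer the diagonal was listed at 0, as for 58 autosomal BG3 loops and 55 autosomal Kc167 loops, so that only 3 of the 4 expected counts give a ratio. The anchor at prd holds the 5' end of the gene. The partner anchor holds those of JhI-21, RpL7-like, a gene related to ribosomal protein L7, and CG34164, and lies 304 bp from Rab3-GAP, a regulator of the synaptic vesicle GTPase Rab3. The partner anchor began 192 bp from the Kc167 border at 12055809, at the edge of the Kc167 TAD. In BG3 the nearest borders lay 51828 bp from the partner anchor and 47958 bp from the anchor at prd. In the permissive lists, a loop with the same anchors thus stood at a TAD edge in one map and deep inside a TAD in the other. The border at 12055809 was not in the stringent Kc167 list, where the TAD of prd ran from 12004174 to 12093495.

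**Figure D2:**
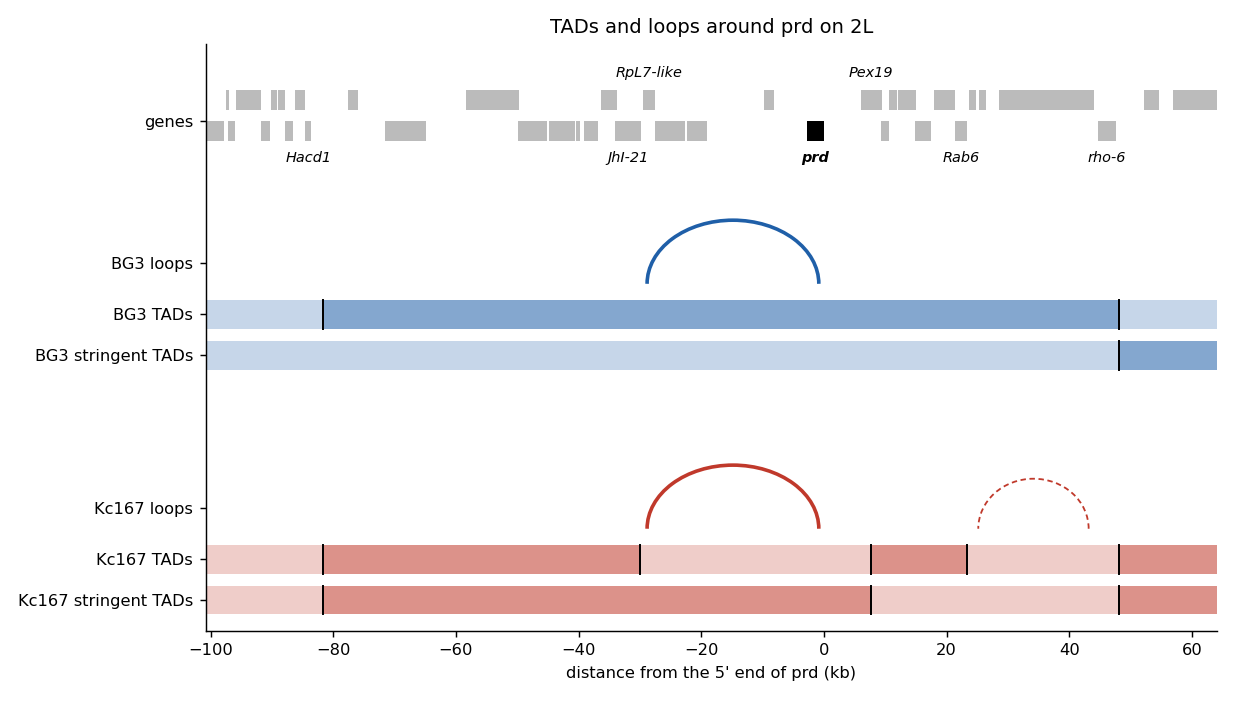
Genes (plus strand above, minus strand below, prd in black), loops (arcs) and TADs of the permissive and stringent lists around prd, with distance from the 5' end of prd in kb, for BG3 in blue and Kc167 in red. Black ticks are borders, shading alternates to separate TADs, solid arcs are loops of prd and dashed arcs are other loops with both anchors in view. The 28 kb arc is the same in both maps, and only Kc167 has a border at its left foot, in the permissive list alone.

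The sequences at the feet of this loop are shown because they are the only anchors of the 7 genes found at the same bins in both maps. They are 300 bases long, read from the RefSeq copy of the dm6 assembly, and capitals mark each GAGAG or GCCAT on either strand (CTCTC and ATGGC on the other). GAGAG is the core bound by GAGA factor and GCCAT that bound by Pho, the Polycomb recruiter. The first is the prd promoter, 250 bases before to 50 after the start (chr2L:12085778-12086077, minus strand), of which the first 77 printed bases lie past the end of the anchor. The second is the stretch of the partner anchor with the most matches (chr2L:12056001-12056300, plus strand), which holds the start of JhI-21.

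prd promoter: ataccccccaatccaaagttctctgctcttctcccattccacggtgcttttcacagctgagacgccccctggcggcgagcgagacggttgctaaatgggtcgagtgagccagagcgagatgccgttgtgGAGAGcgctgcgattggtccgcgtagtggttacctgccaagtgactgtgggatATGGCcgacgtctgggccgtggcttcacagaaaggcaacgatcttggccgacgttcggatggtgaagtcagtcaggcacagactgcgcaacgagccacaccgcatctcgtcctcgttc

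prd partner anchor: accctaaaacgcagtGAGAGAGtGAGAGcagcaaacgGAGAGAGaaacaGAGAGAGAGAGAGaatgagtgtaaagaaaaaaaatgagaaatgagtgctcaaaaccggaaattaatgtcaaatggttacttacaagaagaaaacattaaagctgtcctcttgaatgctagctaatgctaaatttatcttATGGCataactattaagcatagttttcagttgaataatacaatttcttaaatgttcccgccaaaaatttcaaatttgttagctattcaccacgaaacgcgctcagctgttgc

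The partner stretch holds 10 overlapping GAGAG matches, all in its first bases, and 1 GCCAT, and the promoter holds 1 of each. Over the whole 2 kb anchors, the partner had 11 GAGAG matches, a number reached by 2.38% of the 54372 bins of 2 kb on the large autosomal arms, where the median was 2. The anchor at prd had 3 GAGAG and 14 GCCAT matches, and 0.395% of bins held as many GCCAT, against a median of 4. These were the most extreme of 55 motif counts, from 5 motifs in 11 anchors, and a match is a string of letters rather than a bound site. The paired anchors had no sequence similarity found by BLAST, and neither had a copy of 100 bp or more at 90% identity elsewhere in the genome. This also held for the other 9 anchors of the member loops.

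The TAD around slp1 and slp2 was 149.9 kb in BG3, chr2L:3712554-3862458, and 48.86 kb in Kc167, chr2L:3813600-3862458. Both ended at the same base, 210 bp from the 5' end of TTLL4B, a tubulin tyrosine ligase-like gene. The left end differed. The Kc167 border at 3813599, 189 bp from the 5' end of CG3407, stood 48859 bp from the nearest border of BG3. The BG3 border at 3712553, 552 bp from the 5' end of CG31955, stood 54997 bp from the nearest border of Kc167. The Kc167 TAD held no protein-coding genes but slp1 and slp2, whereas the BG3 TAD held 14. Among these was bowl, the remaining member of the odd family, 53.98 kb upstream of slp1. In Kc167, bowl lay in the neighbouring TAD of 156.0 kb. None of these borders was in a stringent list. With the stringent setting slp1 and slp2 shared a TAD of 676.0 kb in the BG3 map and of 347.0 kb in the Kc167 map.

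Loops touched both genes but differed between the maps. In BG3, slp2 was joined over 44 kb to a site in bark, a gene of epithelial junctions, from chr2L:3792001-3794000 to chr2L:3836001-3838000, with 71 contacts and a ratio of 2.89 (2.26 to 3.65). The second BG3 loop joined the same slp2 anchor over 16 kb to chr2L:3820001-3822000, upstream of slp1 and with no protein-coding gene within 2 kb, with 151 contacts and a ratio of 1.82 (1.54 to 2.13). The slp2 anchor holds the 5' end of slp2, and slp1 lies between the feet of both loops. In Kc167 a loop of 16 kb ran from chr2L:3824001-3826000, which holds the 5' end of slp1, to chr2L:3840001-3842000, 816 bp past the 3' end of slp2, with 82 contacts and a ratio of 1.99 (1.58 to 2.47). Both of its anchors lay 4000 bp to the right of those of the 16 kb BG3 loop. The pair counted as shared at a tolerance of 10 kb and not at 2 kb. The BG3 loop of 16 kb had a ratio above only 1.82% of autosomal BG3 loops, but its 151 contacts exceeded those of 96.8% of the 315 loops within 4 kb of its length, and its expected count exceeded those of 98.1% of them. The 2 maps call no loop shorter than 16 kb, and 23.8% of autosomal BG3 loops and 20.4% of autosomal Kc167 loops have that length.

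The promoters of the pair are shown because each lies in an anchor of a single map, that of slp1 (chr2L:3825425-3825724, plus strand) in Kc167 and that of slp2 (chr2L:3836590-3836889, plus strand) in BG3. Capitals are as above.

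slp1 promoter: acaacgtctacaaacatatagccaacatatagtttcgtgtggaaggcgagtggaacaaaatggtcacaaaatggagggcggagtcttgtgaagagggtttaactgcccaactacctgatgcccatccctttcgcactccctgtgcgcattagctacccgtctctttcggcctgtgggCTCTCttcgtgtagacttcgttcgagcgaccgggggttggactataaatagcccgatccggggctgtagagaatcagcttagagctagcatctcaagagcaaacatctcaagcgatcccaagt

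slp2 promoter: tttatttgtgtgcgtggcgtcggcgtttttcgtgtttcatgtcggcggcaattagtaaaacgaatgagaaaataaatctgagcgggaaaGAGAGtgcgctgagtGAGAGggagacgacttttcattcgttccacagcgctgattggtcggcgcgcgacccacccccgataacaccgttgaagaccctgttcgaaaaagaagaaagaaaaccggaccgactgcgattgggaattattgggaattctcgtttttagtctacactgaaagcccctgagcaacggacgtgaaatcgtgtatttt

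The slp1 promoter has 1 GAGAG match, the slp2 promoter 2, and neither has GCCAT. Of all promoters of this length, 30.1% had a GAGAG and 40.6% a GCCAT match. On the 2 kb scale the anchors at slp2 were richer in GCCAT, with 8 matches in the BG3 anchor, a number reached by 14.3% of bins, and 10 in the Kc167 anchor past its 3' end, reached by 5.11%. The other feet of these loops were not above the bin median of 4. The anchor upstream of slp1 in BG3 held 2, and that in bark and that at slp1 held 4 each.

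The cluster of drm, sob and odd had almost the same TAD in both maps. It ran from 3449206 to 3618979 in BG3, a width of 169.8 kb, and from 3449206 to 3618140 in Kc167, a width of 168.9 kb, wider than 96.8% of TADs in either map. The left border lay 478 bp from the 5' end of Snx1, a sorting nexin gene, and was in both stringent lists. The right borders, 839 bp apart, lay 118 and 957 bp from the 5' end of Ugt36A1, a glycosyltransferase gene, and were in neither stringent list. The TAD held the same 26 protein-coding genes in both maps, with drm near its middle, 90.04 kb from the left and 79.73 kb from the right BG3 border, and odd nearest its right end. The 5' end of sob lay 41.52 kb from drm and that of odd 25.99 kb from sob. A border at 3657556, 603 bp from the 5' end of for, the foraging kinase gene, was called at the same base in both maps and both settings, and separated the cluster from bowl, slp1 and slp2. With the stringent setting the cluster lay in the same TAD of 208.4 kb in both maps.

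**Figure D3:**
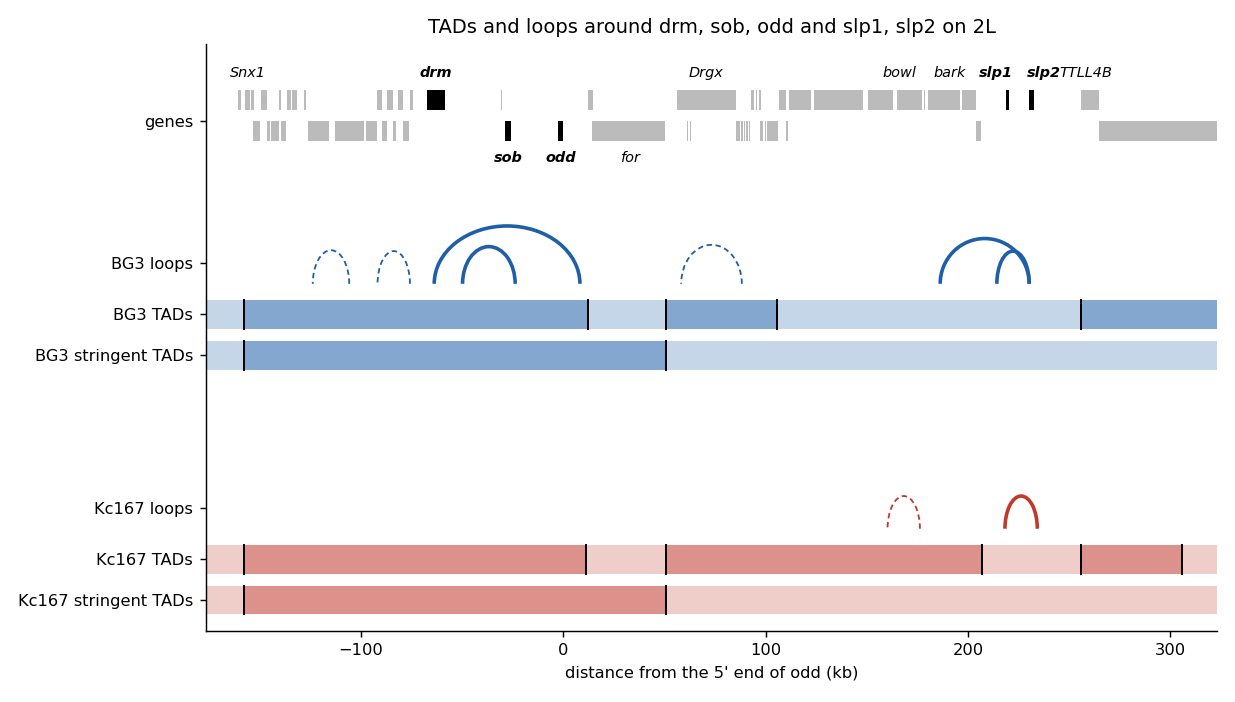
Genes, loops and TADs of the stretch of 2L that holds drm, sob, odd, bowl, slp1 and slp2, with distance from the 5' end of odd in kb, drawn as for prd (BG3 blue, Kc167 red, member genes black, solid arcs for member loops, dashed arcs for other loops with both anchors in view). The TAD around drm, sob and odd is nearly the same in both maps, and only BG3 has called loops inside it.

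Inside this shared TAD the called loops differed. BG3 had 4 loops with both anchors in the TAD and Kc167 had 0. A loop of 72 kb ran from chr2L:3542001-3544000, in drm and 2754 bp from its 5' end, across sob and odd to chr2L:3614001-3616000, where no protein-coding gene lies and which ended 2979 bp before the BG3 border. It had 57 contacts and a ratio of 2.38 (1.80 to 3.08), above 37.4% of autosomal BG3 loops. A loop of 26 kb ran from chr2L:3556001-3558000, with no protein-coding gene within 2 kb, to chr2L:3582001-3584000, 1232 bp upstream of sob, with 73 contacts and a ratio of 1.89 (1.48 to 2.37), above 6.36% of loops. Its largest q-value was 0.0451, close to the caller's limit. The other pair of loops in the TAD, of 18 and 16 kb, joined gene-dense stretches near tim and Spindly and touched no member. No anchor lay within 2 kb of odd.

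Counted within 100 kb of the cluster, BG3 had 7 loops and Kc167 had 0, although Kc167 has more loops in all, 293 against 169 on 2L. At least 5 BG3 loops and no Kc167 loop within 100 kb were found at 17 of all 11749 genes, or 0.145%, a count set after the values of the cluster were seen. Besides drm, sob, odd and CG43815, which lies between drm and sob, these genes fell in 2 other places, on 2R and 3R. A TAD without a loop is common: of 36 autosomal Kc167 TADs of 150 to 190 kb, 41.7% had none, and of 39 such BG3 TADs, 56.4% had none. Among those of BG3, the TAD of drm, sob and odd was the single one with 4 loops or more, a limit equal to its own number. Of the 36 Kc167 TADs, 1 also had 4 or more. The anchor near sob held 26 GATC sites, a number reached by 0.0331% of bins, and the left anchor of the 16 kb BG3 loop at slp1 and slp2 held 22, reached by 0.132%. Over the 11 anchors the number of sites ran from 3 to 26 with a median of 11, against a median of 5 over all bins. GATC is the site at which the DNA was cut, and the part of site density in these loops was not tested.

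The 4 BG3 loops at slp2, drm and sob lay where contacts were dense. Their donut expected counts, 24.6, 83.2, 24.0 and 38.7, exceeded those of 68.4% to 98.1% of BG3 loops of like length. The prd loop lay below the median, with an expected count above 23.4% of BG3 loops and 30.1% of Kc167 loops of like length. The order of the loops by ratio was therefore not their order by contacts. By ratio prd came first among the member loops of both maps, and its BG3 interval overlapped that of the 44 kb slp2 loop alone. The BG3 intervals of the 44 kb slp2, the 72 kb drm and the 26 kb sob loops overlapped one another.

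**Figure D4:**
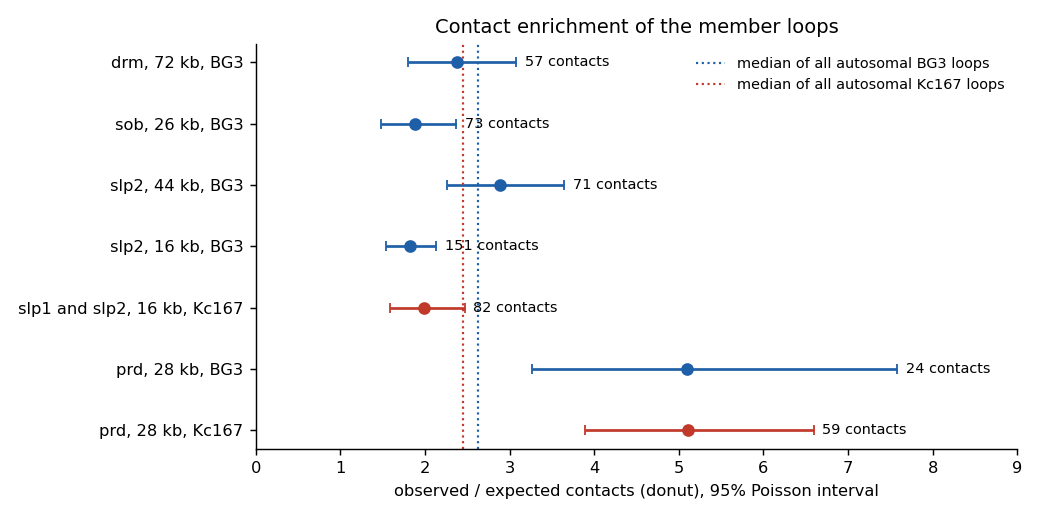
Ratio of observed to donut expected contacts of each member loop on the horizontal axis, with the 95% Poisson interval of the observed count as bars and the observed contacts beside it, for BG3 in blue and Kc167 in red. Dotted lines are the medians over all autosomal loops, 2.63 in BG3 and 2.45 in Kc167. The prd loop stands at 5.10 and 5.11, and the intervals of sob and of both 16 kb loops include no value above 2.47.

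The eve gene had the smallest domain. Its TAD was 16.44 kb in BG3, chr2R:9971313-9987754, and 18.46 kb in Kc167, chr2R:9971748-9990208, and 5.3% and 11.7% of TADs were narrower. Of all genes, 2.25% in BG3 and 7.1% in Kc167 lay in a narrower TAD. The upstream borders, 435 bp apart, lay 169 and 604 bp from the 5' end of CG12134. The downstream borders lay 2454 bp apart, on either side of the 5' end of TER94, which encodes an AAA ATPase, at 1405 bp in BG3 and 1049 bp in Kc167. In BG3 the TAD therefore held eve alone among protein-coding genes, and in Kc167 it held eve and TER94. In Kc167 both borders were in the stringent list, and the TAD was unchanged by the setting. In BG3 neither was, and the stringent TAD, from 9911244 to 10027234, was 116.0 kb. The BG3 separation scores of the borders were -0.0968 and 0.117, and 31.8% and 69.1% of BG3 borders scored lower. The stretch was dense in borders, with 6 in BG3 and 8 in Kc167 within 100 kb of eve, where the median gene had 4 in either map. For prd the numbers were 2 and 5, for slp1 and slp2 1 and 3, and for odd, drm and sob 2 and 2.

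**Figure D5:**
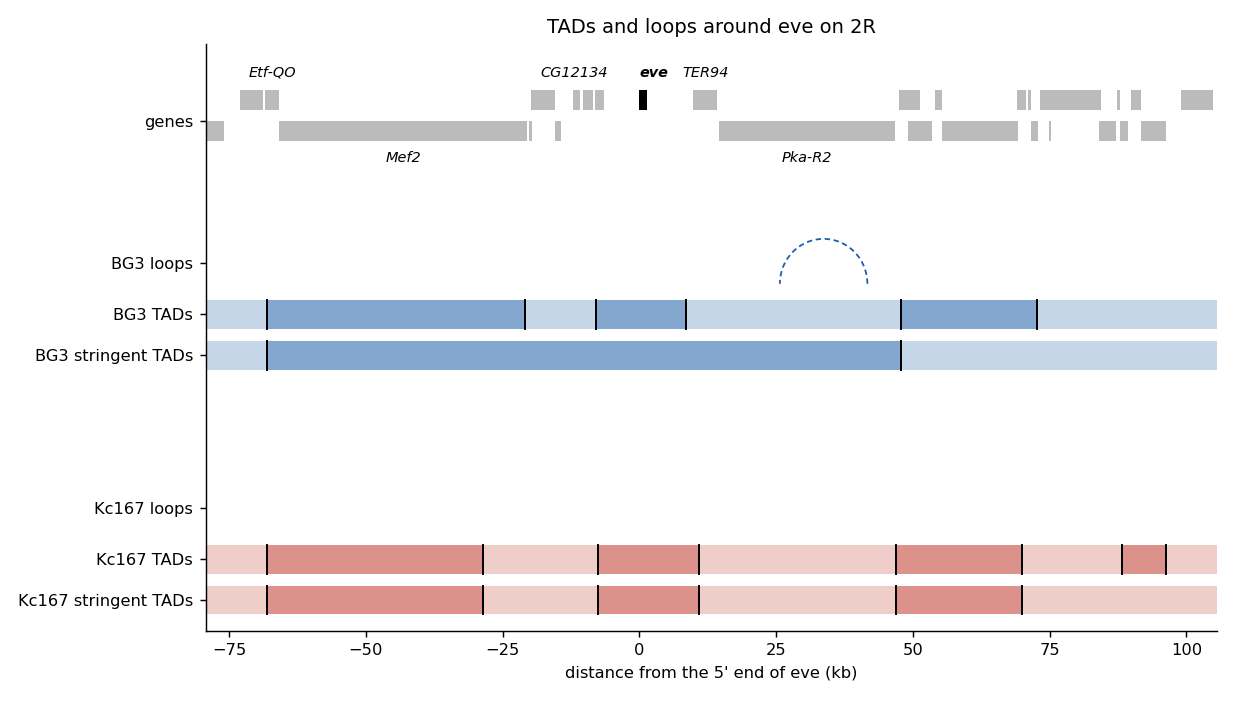
Genes, loops and TADs around eve on 2R, with distance from the 5' end of eve in kb, drawn as for prd (BG3 blue, Kc167 red, eve in black, dashed arcs for loops with both anchors in view). The eve TAD is 16.44 kb in BG3 and 18.46 kb in Kc167, and no loop reaches eve in either map.

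No loop was anchored at eve. Within 100 kb each map had 2 loops, all of 16 kb, and none in the eve TAD. The shortest loop in either list, 16 kb, is close to the width of the eve TAD. The promoter of eve had 3 GAGAG matches, against 1 at odd, 5 at drm and 6 at sob.

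Over all members, a loop anchor lay in or within 2 kb of the gene for 4 of 7 in BG3 (prd, slp2, drm and sob), against 16.3% of all protein-coding genes, and for 3 of 7 in Kc167 (prd, slp1 and slp2), against 21.8%. In both maps it did so for 2 of 7, prd and slp2, against 8.38%. With all 4 q-values at most 0.01 the BG3 count fell to 2 of 7, without prd and sob, against 12.7% of all genes, and that of Kc167 stayed at 3 of 7, against 17.4%, so which map had more members with an anchor depended on this limit. The members with an anchor form 3 loci in BG3 and 2 in Kc167, and genes of a cluster share loops. Of the member loops, 2 of 5 in BG3 and 2 of 2 in Kc167 had a counterpart in the other map within 10 kb at both anchors. No share over all loops stands beside these counts, so they are not read as a trait of the members. The pair of 16 kb at slp1 and slp2 was shifted by 4000 bp at both anchors. Both ends of the TAD matched a border of the other map within 2 kb for 4 of 7 members in BG3 (prd, odd, drm and sob), against 38.0%, and for 3 of 7 in Kc167 (odd, drm and sob), against 28.2%. Since odd, drm and sob share a TAD, these are 2 TADs in BG3 and 1 in Kc167. The BG3 count was 1 of 7 at a tolerance of 20 bp, against 13.5% of genes, and 7 of 7 with the stringent list, against 31.5%. With the stringent list the Kc167 count was 3 of 7, against 14.6%. A match means a border of the other map at both ends, and further borders may lie between. The stringent TAD of prd was 218.9 kb in BG3 and 89.32 kb in Kc167, and that of eve was 116.0 and 18.46 kb. That of drm, sob and odd was the same in both maps. In all 7 member loops, among which the prd loop enters once for each map, the anchors lay within a single TAD of their map. The share of all loops placed so is not given, so this is not read as a trait of the members. At prd the maps shared the loop and not the TAD, and at drm and sob they shared the TAD and not the called loops. The lists give contacts for called loops only, so the Kc167 contacts at the drm and sob loops are not known.

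The other genes of the segmentation cascade were read in the same way, 26 on the autosomes and 6 on X. On the autosomes 2 of 26 had a border within 2 kb in BG3, en and bcd, and 2 of 26 in Kc167, mid and bcd, against the 17.3% and 19.8% of all genes. A loop anchor lay in or within 2 kb of 11 of 26 in BG3 and 15 of 26 in Kc167, and of 10 in both, against 16.3%, 21.8% and 8.38% of all autosomal protein-coding genes. These counts are of genes rather than of separate places, and the shares were not matched for gene length. The en and inv genes shared a loop, and gsb and gsb-n had loops of equal length and ratio within each map. An anchor in both maps need not belong to the same loop. By role, 3 of 3 pair-rule genes had an anchor in BG3 and 2 of 3 in Kc167, 2 and 3 of 6 gap genes, 5 and 7 of 12 segment polarity genes, and 1 and 3 of 5 maternal genes. On X, 1 of 6 genes had an anchor in each map, the gap gene btd. No share of all X genes stands beside this count, since the shares given are of autosomal genes. Autosomal genes with an anchor in both maps are named in the order of their BG3 ratios. This is not their order in Kc167, where ems came second with a ratio of 2.66, against 1.81 in BG3. The highest ratios of these genes in both maps were those of tsl, which acts in terminal patterning, at 4.80 in BG3 and 3.38 in Kc167, both with loops of 28 kb. The engrailed paralogs en and inv were joined by the same loop of 50 kb, with ratios of 3.09 and 2.47. The pair-rule gene h, listed as hry, stood at 2.81 and 2.48 with loops of 22 and 18 kb, the gap gene kni at 2.73 and 2.37 with loops of 74 kb, and the pair-rule gene ftz at 2.22 and 1.91 with loops of 18 and 38 kb. The donut ratio at prd was above all of these in both maps. In BG3, however, the 4.80 of tsl lay within the prd interval of 3.27 to 7.58. The BG3 loop of tsl also passed the limit of 0.01 for all 4 q-values, and that of prd did not.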

How the data were processed

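TAD and loop lists of the lines were read as the authors deposited them. They had summed the 2 biological replicates of a line beforehand. Alignment to dm6 used BWA 0.7.15-r1140, and Juicer 1.7.6 was also named in the submitters' processing notes. By the study's methods, HiCExplorer called TADs with permissive and with stringent parameters, and HiCCUPS called loops in 2 kb bins. The deposited TAD separation score has no fixed range and belongs to the left border of a TAD. It was compared within a map only. The deposited loop lists give the observed contact count, the expected contacts as a signal from 4 neighbourhoods, and 4 q-values, as the authors computed them. Read depth was not in the lists, and 0 columns of other samples were used.

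Gene positions were those of Ensembl 115. The TAD of a gene is that holding its outermost 5' end. Loops were tied to a gene by an anchor in or within 2 kb of it, and shared if both anchor midpoints lay within 10 kb. Ratios are observed over donut expected contacts with exact Poisson intervals at 95%. The motifs GAGAG (GAGA factor core), GCCAT (Pho core), CGATA (BEAF-32 and Dref core), the repeat GTGTGT and the E-box CACGTG were counted on both strands, overlaps included, in anchors and in promoters. At least 1 match occurred in 89.9%, 97.6%, 89.0%, 68.2% and 21.4% of 2 kb bins and in 30.1%, 40.6%, 46.2%, 15.4% and 3.86% of promoters. The text names the 7 members, genes in or within 2 kb of partner anchors, the nearest gene start within 5 kb of a border, and of the other segmentation genes at most 6 with an anchor in both maps, by BG3 ratio. Other names (bcd, mid, btd, ems, gsb, gsb-n, bowl, tim, Spindly, CG43815 and Rab6) were chosen after values were seen. Members and lists were chosen with earlier results of these data known. The distance and overlap functions were tested on simulated data. Python 3.11.15, NumPy 2.4.6, pandas 2.3.3, SciPy 1.17.1, Matplotlib 3.10.9 and BLAST 2.17.0 were used.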

Additional observations from a re-analysis of the deposited data

How the results depend on the processing

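Both maps are single merged maps, so replicates could not be left out and no depth correction was possible. No paired analysis was possible because the deposited lists rest on merged replicates. With a limit of 10 kb, 1 member in BG3 and 2 in Kc167 had a border near their 5' end, against 46.7% and 52.7% of all genes. Limits of 1 and 5 kb, the gene body and the stringent list left the count at 0 in both maps. At 5 kb the shares of all genes were 30.1% in BG3 and 34.4% in Kc167, and with stringent borders within 2 kb 6.35% and 10.2%. With a tolerance of 20 bp, 1 member in BG3 (prd) and 0 in Kc167 had both TAD ends matched, against 13.5% and 9.38% of all genes. With the stringent list 7 in BG3 and 3 in Kc167 did. With all 4 q-values at most 0.01, 2 members in BG3 had an anchor, since the loops of prd and sob fell out. With that limit, or with anchors within 2 kb, 1 loop in each map was shared. The loop shared at the stricter q-value was that of 16 kb at slp1 and slp2, and at 2 kb it was that of prd. Of the other segmentation genes, 6 of 26 in BG3 had a border within 5 kb, against 30.1% of all genes, and with stringent borders 1 in BG3 and 0 in Kc167, against 6.35% and 10.2%.

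The ratios depended on the neighbourhood. The horizontal one gave 2.94 for prd in BG3 and 2.34 in Kc167, and the vertical one 6.69 in Kc167, so the point values of prd were close for the donut alone. The horizontal one gave 2.01 for the 44 kb slp2 loop. The bottom left one gave 2.69 for sob, 2.77 for the 16 kb slp2 loop and 2.72 for the Kc167 loop at slp1 and slp2. The cause was not tested. Of 14 numbers of borders around members, 8 moved with a window of 50 kb, 11 with 200 kb and 13 with the stringent list.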
